A study of Mus musculus with 19 samples.

Results

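The cytosolic ribosomal protein genes encode the proteins of the large (Rpl symbols) and small (Rps symbols) subunits of the cytoplasmic ribosome. They were taken here as the protein-coding mouse genes of the GENCODE M21 annotation named Rpl or Rps with a number, together with Rplp0, Rplp1, Rplp2 and Rpsa, without the Rps6k kinases. Of 86 genes with such a symbol, 85 reached a value of 10 in at least 3 libraries (51 large-subunit and 34 small-subunit symbols). In all, 23973 genes were tested. The symbols also took in Rps19bp1, a binding protein of Rps19 and no core subunit protein. The gene left out was Rpl10l, an Rpl10 copy expressed in testis, with a highest value of 2.81. All 85 were at 10 or more in all 19 libraries, so the filter on low values kept none of them through 1 group alone.

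The libraries were made from total RNA of brain homogenate enriched for microglia, the resident macrophages of the brain. HEM mice overexpress full-length human wild-type α-synuclein under control of the mouse Thy-1 promoter, with the transgene on the X chromosome, and WT mice are their controls. All mice had the B6D2F1/J background. The Thy-1 promoter is best known for driving transgenes in neurons. The older mice (13 months) were 8 HEM and 4 WT animals, and the younger ones (3 months) 4 HEM and 3 WT animals. The values are gene counts that the authors divided by 1 size factor per library, called depth-normalised counts below; they correspond to 63.3 to 124.5 M counted reads per library. The 10 microglia markers, among them P2ry12, Tmem119 and Cx3cr1, were present in every library, and so were all listed markers of neurons, oligodendrocytes, astrocytes, endothelium, choroid plexus, erythroid cells and neutrophils. By its markers the material is thus a mixture, and fewer cells of a type and less RNA per cell cannot be told apart in it. Earlier work on these data set 3 libraries apart on principal components (HEM replicates 1 and 11 at 13 months and HEM replicate 3 at 3 months); calls of ribosomal protein genes are given with and without them.

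Ribosomal protein mRNAs are among the most abundant in animal cells, and their products assemble with ribosomal RNA in near-equal numbers. Their mRNAs typically begin with a C followed by a run of pyrimidines, the 5′ terminal oligopyrimidine (TOP) tract, through which mTOR signalling and the protein Larp1 control their translation as a group. Rps18 (uS13 in the uniform nomenclature) sits in the head of the small subunit and is often used as a constant reference gene in quantitative PCR. It is set against the other 84 genes throughout.

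RefSeq start sites were matched for 65 of the 85 genes, with 77 promoters (build GRCm38.p6). A C followed by at least 4 bases that are each C or T stood exactly at the annotated start in 14 of these 77 promoters (18.2%), against 2.40% of 18530 promoters of all genes tested that were matched. The 7 letters CCGGAAG, the core that ETS factors recognise, lay on either strand within 250 bases before to 50 after the start in 35.1% of the ribosomal protein promoters and in 13.4% of all. The 8 letters AAGATGGC, part of the YY1 motif, did so in 10.4% and 3.43%. The windows below run from 15 bases before the start to 15 bases from it, with the pyrimidine tract in capitals. They show 4 of the 14 starts. Rps18 starts with a tract like that of Rps6, the small-subunit protein phosphorylated downstream of mTOR, and of Rpl15. Rps27rt has the shortest of these 4, with 6 bases. Among the 14, Rpl14 also has 6, and Rps21 and Rplp2 have 5. A link of tract length with age or genotype was not tested.
Rps18 (chr17:33955651-33955680, minus strand): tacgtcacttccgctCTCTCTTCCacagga
Rps6 (chr4:86857353-86857382, minus strand): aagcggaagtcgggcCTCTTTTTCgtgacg
Rpl15 (chr14:18270972-18271001, minus strand): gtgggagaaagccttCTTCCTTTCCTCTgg
Rps27rt (chr9:114982725-114982754, minus strand): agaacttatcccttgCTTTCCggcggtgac

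Per kilobase of exon, the median ribosomal protein gene had a mean depth-normalised count of 12344, against 180 for the median of all genes tested, and 41 of the 85 lay above the 99th percentile of all genes. Rplp1, a protein of the P stalk that recruits elongation factors, had the highest level (152664 per kb), followed by Rps15 (62780 per kb) and Rps3a1 (46324 per kb). The lowest levels were those of Rpl39l, the testis-enriched Rpl39 copy (42.5 per kb), Rpl24 (78.9 per kb) and Rpl3l, the striated-muscle copy of Rpl3 (93.4 per kb). Rpl24 is a core large-subunit protein, and 47.0% of its exon bases are shared with the overlapping gene Gm28037; how reads in shared exons were counted is not given in the sources used here. Rpl13a, another core protein, had 760 per kb with 35.4% of its exon bases overlapped. Rpl35 and Rpl23a, with 66.2% and 62.3% overlapped, had higher mean counts of 10496 and 5165, against 81.3 for Rpl24 and 1606 for Rpl13a. A link of overlap with level was not tested. In all, 39 of the 85 had some exon overlap and 16 had more than 10%.

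The genes moved together from library to library. Within the 3-month HEM group, replicate 7 was the lowest library for 78 of the 85 genes (28.9% of all genes tested). Replicate 3 was the highest there for 62 (31.5% of all). Within the 13-month WT group, replicate 7 was the highest for 76 (26.7% of all). In the 3-month WT group, replicate 3 was the highest for 67 (38.9% of all) and replicate 5 the lowest for 72 (32.1% of all). In the 13-month HEM group, replicate 4 was the lowest for 64 (11.4% of all). The median within-group SD of a member was 0.19 on the log2 scale and 0.086 once the median deviation of all members in each library was taken off. For the 2114 genes of like abundance (mean log2 value between 13 and 16) the median SD was 0.19, with no such median taken off.

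The mean log2 level of the 85 genes was 14.10 ± 0.12 in 13-month HEM libraries (SD, n = 8) and 14.17 ± 0.13 in 13-month WT libraries (SD, n = 4). At 3 months it was 14.05 ± 0.24 in HEM libraries (SD, n = 4) and 13.95 ± 0.12 in WT libraries (SD, n = 3). The 4 groups overlapped. The genes together took 2.29 to 3.05% of all counts in 13-month HEM libraries, 2.34 to 2.82% in 13-month WT libraries, 1.94 to 2.94% in 3-month HEM libraries and 2.15 to 2.56% in 3-month WT libraries.

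**Figure D1:**
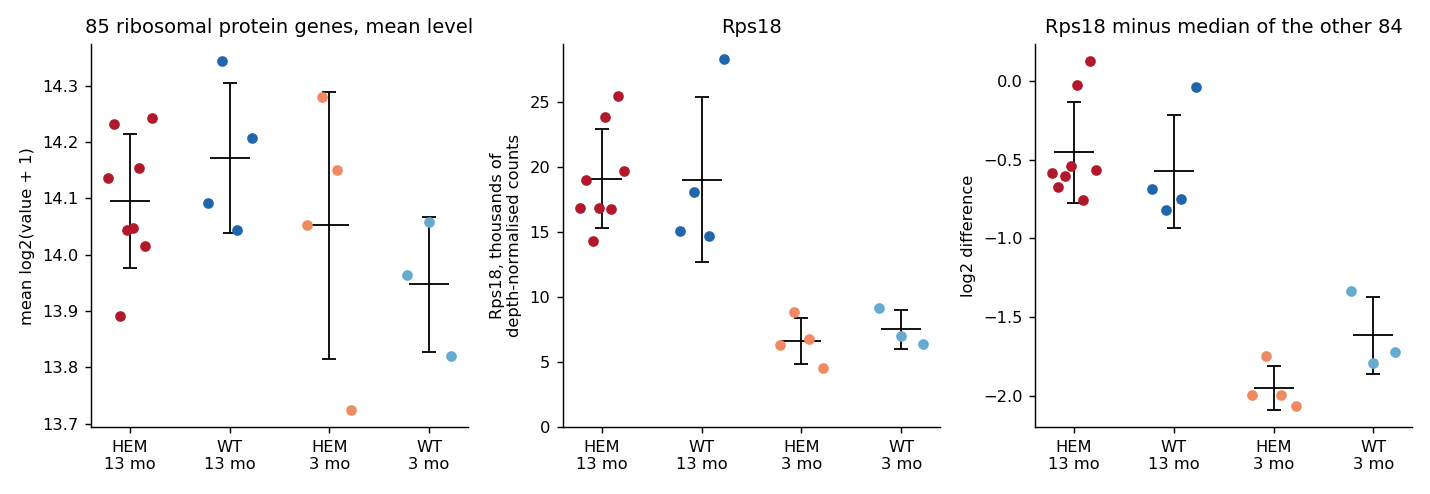
Each point is 1 library, with bars for the mean and SD of a group: the left panel gives the mean log2(value + 1) of the 85 genes, the middle panel the depth-normalised count of Rps18, and the right panel the log2 level of Rps18 minus the median of the other 84. The mean level of the 85 overlaps between all groups, whereas every 13-month library lies above every 3-month library in Rps18, also after the level of the others is taken off.

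Age was compared within each genotype, with all 4 groups in 1 limma fit on log2(value + 1) and Benjamini-Hochberg adjustment over the 23973 genes. Rps18 rose at 13 months against 3 months in both genotypes and was the only ribosomal protein gene called in either. Of all genes, 1.62% were called in HEM mice (0.934% higher) and 0.709% in WT mice (0.463% higher), so 1 call among 85 is a share near the background in both.

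Rps18 had depth-normalised counts of 14346 to 25476 in the 8 HEM libraries at 13 months, with a median of 17931. The 4 HEM libraries at 3 months had 6355, 8845, 6817 and 4590. No 13-month HEM library reached down to the range of the 3-month ones, a separation shown in that direction by 1.44% of all genes and by no other member. The ratio of the group means was 2.87, and the fitted log2 change was 1.54 ± 0.19 (SE; limma adjusted p = 0.0029). By p, Rps18 ranked 1 among all genes in this comparison. Without the 3 libraries set apart the log2 change was 1.74 (limma adjusted p = 0.014), and with each library left out in turn it was 1.37 to 1.69, past the threshold every time.

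In WT mice Rps18 had counts of 15094, 18083, 14721 and 28287 at 13 months. At 3 months the counts were 9206, 7005 and 6379. These groups did not overlap either. Such a separation was common in WT mice, with 8.83% of all genes and 30 of the 85 members showing it in that direction. Replicate 9 at 13 months stood well above the other WT libraries. The ratio of the means was 2.53, and the log2 change was 1.30 ± 0.24 (SE; limma adjusted p = 0.0224). The call rests on few mice. Leaving out WT replicate 7 or 9 at 13 months gave log2 changes of 1.31 and 1.10 (limma adjusted p = 0.078 and 0.0568), and leaving out WT replicate 1, 3 or 5 at 3 months gave 1.46, 1.26 and 1.19 (limma adjusted p = 0.0629, 0.0647 and 0.167). Without the 3 HEM libraries set apart the limma adjusted p was 0.0222. The 2 age comparisons use different mice.

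Between the genotypes Rps18 was at 19113 ± 3813 in HEM mice (SD, n = 8) and 19046 ± 6341 in WT mice (SD, n = 4) at 13 months, with a log2 change of 0.03 ± 0.19 (SE; limma adjusted p = 0.951). At 3 months it was at 6652 ± 1749 in HEM mice (SD, n = 4) and 7530 ± 1485 in WT mice (SD, n = 3), with a log2 change of -0.20 ± 0.24 (SE). The HEM minus WT difference at 13 months exceeded that at 3 months by 0.23 ± 0.31 on the log2 scale (SE; limma adjusted p = 0.791). The data thus give Rps18 a difference with age and none that passed the test with genotype.

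None of the other 84 genes rose as far with age, though in WT mice most of them also had a log2 change above 0. In HEM mice their median log2 change with age was 0.05, so that Rps18 lay 1.49 above it. Their changes ran down to -1.04 for Rpl3l and up to 0.66 for Rpl39l and Rps27rt. In WT mice the median of the others was 0.25, Rps18 lay 1.05 above it, and the others ran from -1.39 for Rpl3l to 0.58 for Rpl3. Relative to the median of the others within each library, Rps18 was at -0.45 ± 0.32 in 13-month HEM libraries (SD, n = 8), against -1.95 ± 0.14 in 3-month HEM libraries (SD, n = 4). In WT libraries it was at -0.57 ± 0.36 at 13 months (SD, n = 4), against -1.62 ± 0.25 at 3 months (SD, n = 3). At 3 months Rps18 thus lay far below the typical member, and at 13 months closer to it. Each library's own ribosomal protein level drops out of these values.

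**Figure D2:**
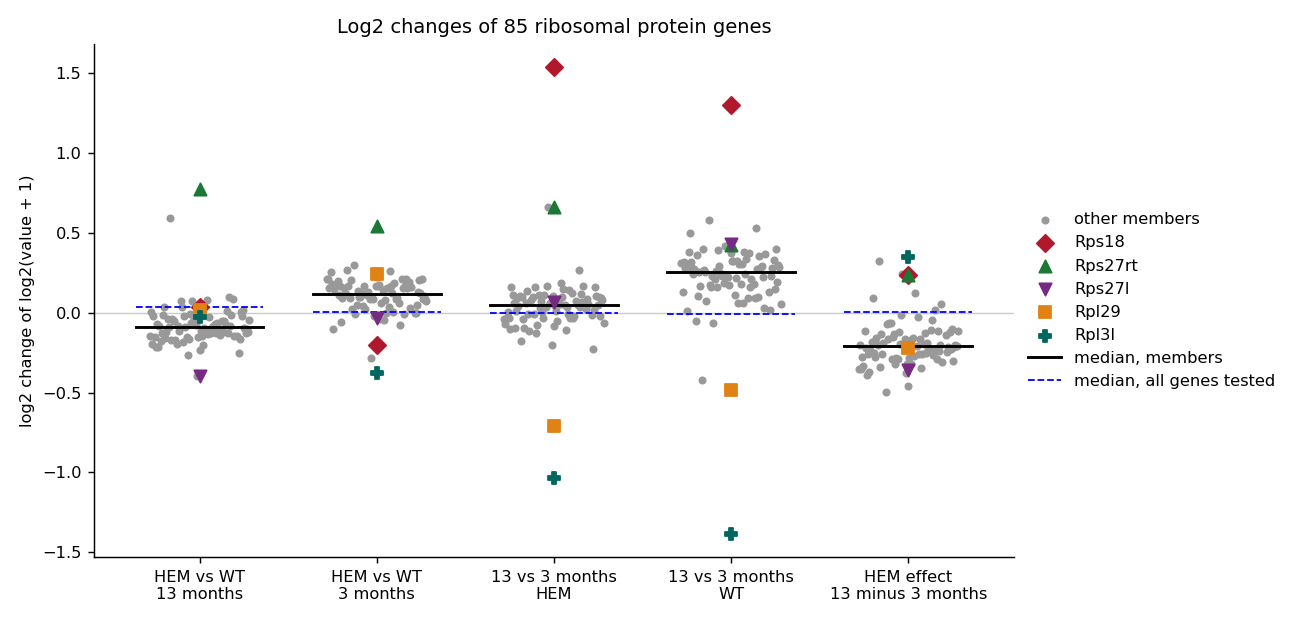
Each point is the fitted log2 change of 1 of the 85 genes in 1 comparison, with named genes as coloured symbols, the members' median as a solid line and the median of all genes tested as a dashed line. Rps18 stands at 1.54 and 1.30 in the 2 age comparisons. Between genotypes it stands at 0.03 at 13 months and -0.20 at 3 months, where the others have medians of -0.09 and 0.12. For the difference of the genotype effects it stands at 0.23, against a median of -0.21. In these 3 comparisons it is within the range of the others.

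Several marker lists of other cells also differed in level between the ages. In HEM mice all 10 neutrophil markers had a log2 change with age above 0, with a median of 1.75, and their mean log2 level ran from 11.64 to 15.12 at 13 months, against 10.97 to 13.11 at 3 months. Of the neuron markers 1 of 7 was above 0, with a median of -0.88, and their mean log2 level ran from 10.11 to 13.27 at 13 months, against 11.85 to 12.98 at 3 months. None of these neutrophil and neuron markers was called. In HEM mice 2 of 6 astrocyte markers rose at 13 months (Slc1a2 and Slc1a3, the glial glutamate transporters, with log2 changes of 1.42 ± 0.26 and 1.38 ± 0.25, SE), 2 of 5 endothelial markers fell (Cdh5 and Kdr, with -1.18 ± 0.25 and -1.44 ± 0.31, SE), and 1 of 7 erythroid markers rose (Slc4a1, 2.03 ± 0.46, SE). Of the erythroid markers only 4 of 7 were above 0 in HEM mice, with a median of 0.08. In WT mice 1 of 6 astrocyte markers rose (Aldh1l1, 0.71 ± 0.16, SE). These calls were fragile: without HEM replicate 1 at 3 months those of Slc1a2 and Slc1a3 were lost (limma adjusted p = 0.0617 and 0.0665), without HEM replicate 3, 4 or 7 at 3 months those of Cdh5 and Kdr (0.0562 to 0.0916), and those of Slc4a1 and Aldh1l1 without any of several libraries. The mean log2 level of the 5 endothelial markers ran from 13.02 to 14.66 in HEM libraries at 13 months, against 14.48 to 15.58 at 3 months, and from 12.99 to 14.54 in WT libraries at 13 months, against 14.67 to 15.12 at 3 months. No listed marker was at 0 in any library. Their part in the Rps18 difference was not tested. With the mean level of the neutrophil and erythroid markers as a covariate, the log2 change of Rps18 was 1.53 in HEM mice and 1.31 in WT mice, with limma adjusted p of 0.0637 and 0.190.

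A near-copy of Rps18 bears on how its reads were assigned. The processed pseudogene Rps18-ps3 on chromosome 8 matches 453 of the first 456 of the 459 coding bases of Rps18 in the GENCODE M21 transcripts (99.3%). The 3 differing bases, in capitals below within 30 coding bases each, are the only ones of the 456 compared that tell the genes apart.
Rps18, coding bases 166 to 195: gctggagaactcacgGaggatgaggtggag
Rps18-ps3, same bases: gctggagaactcacgCaggatgaggtggag
Rps18, coding bases 322 to 351: cgtgaggacctggagAggctgaagaaaatt
Rps18-ps3, same bases: cgtgaggacctggagCggctgaagaaaatt
Rps18, coding bases 415 to 444: actggccgcaggggcCgaactgtgggtgta
Rps18-ps3, same bases: actggccgcaggggcTgaactgtgggtgta

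Rps18-ps3 was itself counted. Its depth-normalised count ran from 48.7 to 511 in HEM libraries at 13 months, with a median of 302, against 378 to 781 at 3 months. In WT libraries it was 344, 295, 252 and 17.2 at 13 months, against 387, 517 and 394 at 3 months. The 3 libraries lowest in the pseudogene (HEM replicates 8 and 12 with 68.2 and 48.7, WT replicate 9 with 17.2) were the 3 highest in Rps18, with 23855, 25476 and 28287. The age difference of the pseudogene did not pass the test in HEM mice (log2 change -1.15 ± 0.71, SE; limma adjusted p = 0.432) or in WT mice (-1.54 ± 0.88, SE; limma adjusted p = 0.422). The sum of both genes was 19407 ± 3710 at 13 months, against 7180 ± 1812 at 3 months in HEM mice (SD, n = 8 and 4). In WT mice the sum was 19273 ± 6206 at 13 months, against 7962 ± 1461 at 3 months (SD, n = 4 and 3). The pseudogene never exceeded 781, against at least 4590 for Rps18 in every library. The sum thus follows Rps18 and cannot show how reads were split between the 2 genes. Reads assigned to neither gene were not analysed here.

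**Figure D3:**
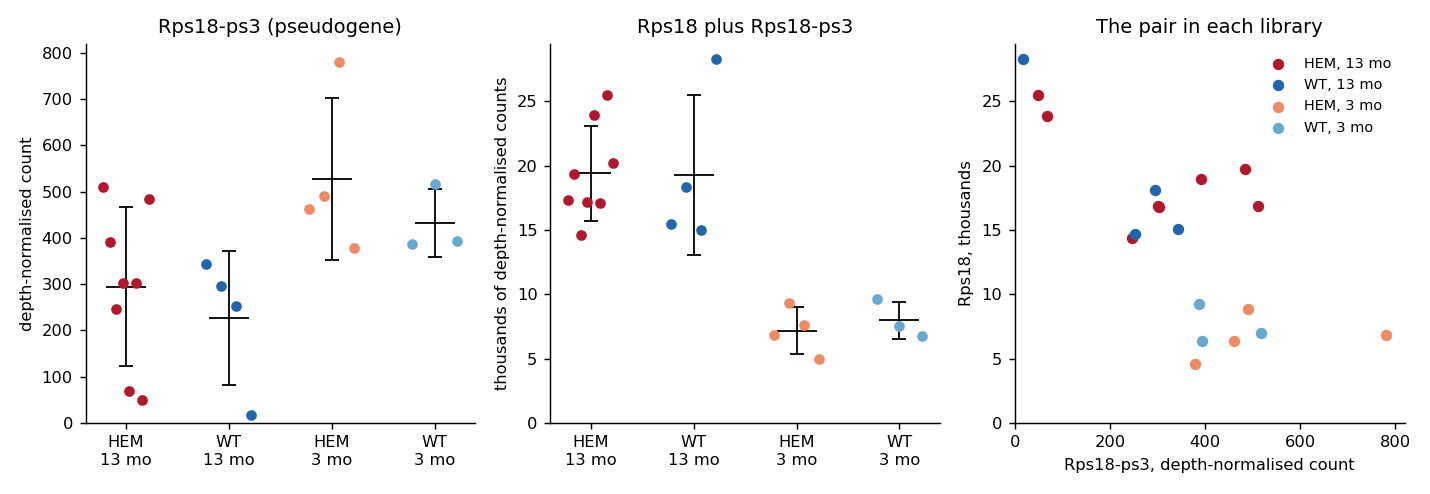
The left panel shows the depth-normalised count of the pseudogene Rps18-ps3 and the middle panel its sum with Rps18, with the mean and SD of each group; the right panel sets Rps18 against Rps18-ps3 in each of the 19 libraries. The 3 libraries with the lowest Rps18-ps3 counts (17.2, 48.7 and 68.2) have the highest Rps18 counts. The sum consists mostly of Rps18 counts and so separates the ages as Rps18 alone does.

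Position was not part of how the genes were chosen. Rps18 lies on chromosome 17 (33951999 to 33956001, minus strand, mm10 coordinates of GENCODE M21), near the class I gene H2-K1 of the major histocompatibility complex. Within 250 kb of it, 39 other genes were tested. In HEM mice 5 of these rose with age and 2 fell, or 17.9% against 1.62% of all genes; in WT mice 2 rose, or 5.13% against 0.709%. The genes that rose were H2-K1 and H2-DMb1 in both genotypes, and H2-K2, H2-Ke6 and the non-coding BC051226 in HEM mice.

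H2-K1, which encodes a class I heavy chain, lies 40.0 kb from Rps18. Its count ran from 31801 to 62946 in HEM libraries at 13 months, with 18594, 30653, 17759 and 21075 at 3 months, and the groups did not overlap (log2 change 1.05 ± 0.18, SE; limma adjusted p = 0.0116). In WT libraries it was 27367, 32703, 30021 and 41537 at 13 months, against 16481, 13560 and 12603 at 3 months (1.20 ± 0.22, SE; limma adjusted p = 0.0243). H2-DMb1, a subunit of the class II peptide exchange factor 197 kb away, had log2 changes of 1.05 ± 0.19 in HEM mice and 1.41 ± 0.24 in WT mice (SE; limma adjusted p = 0.0162 and 0.0218). H2-K2, a transcribed pseudogene 18.7 kb away, had 1.08 ± 0.23 in HEM mice and 0.85 ± 0.29 in WT mice, where it did not pass (SE; limma adjusted p = 0.0251 and 0.146). H2-Ke6, a steroid dehydrogenase gene 70.0 kb away, and BC051226, 42.7 kb away, had 1.24 ± 0.31 and 0.81 ± 0.19 in HEM mice (SE; limma adjusted p = 0.0488 and 0.0392). In WT mice the calls of H2-K1 and H2-DMb1 were lost when WT replicate 7 or 9 at 13 months or WT replicate 1, 3 or 5 at 3 months was left out (limma adjusted p of 0.056 to 0.167). In HEM mice that of H2-K2 was lost without HEM replicate 1, 4 or 7 at 3 months (0.0676 to 0.106), and those of H2-Ke6 and BC051226 without any of 15 and 9 libraries (up to 0.135 and 0.126).

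The genes directly around Rps18 did not follow it. Vps52, a subunit of a tethering complex for endosome-to-Golgi traffic, lies on the opposite strand and overlaps 6.36% of the exon bases of Rps18. Whether reads were counted by strand is not given in the sources used here, and without it reads of that overlap cannot be told apart. Vps52 fell in HEM mice at 13 months (log2 change -0.34 ± 0.07, SE; limma adjusted p = 0.0195), a call lost without HEM replicate 1, 3 or 7 at 3 months (0.0778, 0.0513 and 0.0548) and with the length and GC trend removed (0.139). On the other side B3galt4, 0.511 kb away, had a log2 change of -0.26 ± 0.17 and Wdr46, 2.30 kb away, one of -0.26 ± 0.12 (SE), and neither passed. Cd320, a receptor for vitamin B12 uptake 102 kb away, fell in HEM mice (-0.46 ± 0.10, SE; limma adjusted p = 0.0214), a call lost without HEM replicate 1, 4 or 7 at 3 months (0.0711, 0.0606 and 0.0826). The nearest ribosomal protein gene, Rps28, 127 kb away, was at 13182 to 21565 in HEM libraries at 13 months, against 11800 to 22237 at 3 months, with overlapping groups and a log2 change of -0.01 ± 0.15 (SE). The other 6 ribosomal protein genes of chromosome 17 (Rps2, Rps10, Rpl3l, Rpl7l1, Rpl10a and Rpl36) were not called by limma in either age comparison in the model of all 4 groups. Rps2 passed in WT mice by DESeq2 and with the length and GC trend removed (limma adjusted p = 0.0490). Between the genotypes at 13 months, 4 of the 39 neighbours were called (10.3%), against 12.2% of all genes, so no more than the background. Kifc1, a mitotic motor, and Tap1, the peptide transporter of class I antigen loading, rose in HEM mice (log2 changes 1.54 ± 0.34 and 0.58 ± 0.14, SE), while Ndufa7, of mitochondrial complex I, and Cd320 fell (-0.52 ± 0.11 and -0.40 ± 0.10, SE).

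**Figure D4:**
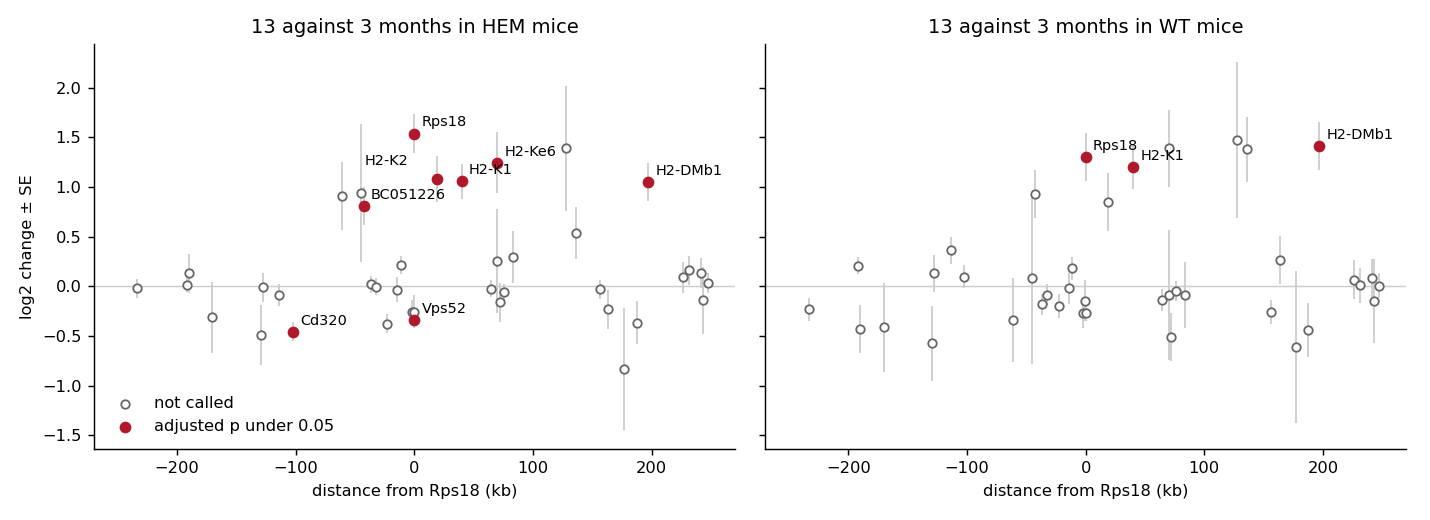
Fitted log2 change with age and its SE for Rps18 and the 39 tested genes within 250 kb, plotted against distance from Rps18 in kb, in HEM mice on the left and WT mice on the right. Filled points passed an adjusted p of 0.05; H2-K1 and H2-DMb1 are filled in both panels, while B3galt4, Wdr46 and Vps52, the genes next to Rps18, lie below 0.

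The other ribosomal protein genes showed a common shift to higher levels at 13 months in WT mice, and none of them passed the threshold in this fit. The mean log2 level of the 85 overlapped between the 2 ages. It was 14.04 in WT replicate 8 at 13 months, against 14.06 in WT replicate 3 at 3 months. In WT mice 80 of the 85 had a log2 change above 0, where 48.8% of all genes did, with a median of 0.25 against -0.01 for all genes tested. At an unadjusted p under 0.05, 32 were higher (9.18% of all genes were), Rps18 among them. For 30 of the 85, all 4 libraries at 13 months lay above all 3 at 3 months, where 8.83% of all genes did. Since the 85 move together by library, these counts describe the library levels rather than 85 separate results. Rps2, a core small-subunit protein, had the smallest adjusted p after Rps18. Its counts were 38906, 41962, 33711 and 43803 at 13 months, against 24933, 30419 and 26675 at 3 months (log2 change 0.53 ± 0.14, SE; limma adjusted p = 0.0788). Rps6 had 34425, 42374, 32816 and 36404 at 13 months, against 26313, 30307 and 26159 at 3 months (0.40 ± 0.11, SE; limma adjusted p = 0.0813). Rpl15 followed with 0.50 ± 0.15 (SE; limma adjusted p = 0.0968). Once a trend with gene length and GC was taken off, Rps2 and Rps6 passed (limma adjusted p = 0.0490 and 0.0414). Of the 5 genes below 0, Rpl3l had -1.39 ± 0.56 and Rpl24, Rpl29 and Rpl34 had -0.42 ± 0.31, -0.49 ± 0.89 and -0.07 ± 0.21 (SE), and none passed. DESeq2 on the recovered reads called 9 members, namely Rpl5, Rpl6, Rpl7, Rpl7a, Rpl14, Rpl15, Rps2, Rps6 and Rps18; it called 1217 genes in all, or 6.3% of those it gave an adjusted p. The erythroid and neutrophil lists had median log2 changes of -1.17 and -1.16 in this comparison, the choroid plexus list 0.76, and 0 of these markers were called; their part in the shift was not tested.

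In HEM mice the 85 genes had a median log2 change with age of 0.05, against -0.00 for all genes, with 56 above 0 (49.4% of all genes were) and 29 below. The sign of this median depends on 1 library: it was -0.069 without HEM replicate 7 at 3 months, and 0.13 without HEM replicate 3 at 3 months. At an unadjusted p under 0.05, 4 were higher and 1 lower, against 8.90% and 7.68% of all genes, so the members were below the background here. Rps27rt had counts of 297 to 473 at 13 months, against 189 to 307 at 3 months (0.66 ± 0.18, SE; limma adjusted p = 0.0714), and the ranges overlapped only between 297 and 307; DESeq2 called it, among 6.05% of all genes it gave an adjusted p, and so did limma without HEM replicate 3 at 13 months (adjusted p = 0.0455). Rpl39l was at 25.7 to 56.0 at 13 months, against 16.9 to 32.8 at 3 months (0.66 ± 0.27, SE; limma adjusted p = 0.213). Rpl3l was at 42.3 to 184 at 13 months, against 163 to 233 at 3 months (-1.04 ± 0.45, SE; limma adjusted p = 0.252). Rpl22l1, the Rpl22 copy that can replace it in the ribosome, and Rpl41 and Rps29, core subunit proteins, were the next lower by p, with log2 changes of -0.17, -0.20 and -0.23 that did not pass.

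HEM and WT mice were compared next, to ask whether α-synuclein overexpression goes with other levels of these genes. At 13 months 12.2% of all genes were called, 4.87% higher and 7.3% lower in HEM mice. Of the 85 ribosomal protein genes 1 rose (Rps27rt) and 1 fell (Rps27l), a share well under the background. DESeq2 called 4 members and 4032 genes in all, or 18.6% of those it gave an adjusted p. Rps27rt and Rps27l are both relatives of Rps27, a zinc-finger protein of the small subunit. The median log2 change was -0.09, against 0.03 for all genes, and 15 of the 85 were above 0, where 53.8% of all genes were. This median was -0.030 without WT replicate 7, -0.058 without HEM replicate 4 and -0.15 without WT replicate 8. At an unadjusted p under 0.05, 2 were higher and 6 lower, against 11.6% and 13.3% of all genes. The medians of the large-subunit and small-subunit symbols were -0.10 and -0.09.

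The coding parts of the Rps27 family show how far these counts can be told apart. Over 255 coding bases Rps27rt, a copy on chromosome 9, is identical to Rps27 on chromosome 3, while Rps27l on chromosome 9 matches Rps27 at 194 bases (76.1%). The start of each is printed from base 1 to 90, with the bases of Rps27l that differ from Rps27 in capitals (24 in this stretch).
Rps27: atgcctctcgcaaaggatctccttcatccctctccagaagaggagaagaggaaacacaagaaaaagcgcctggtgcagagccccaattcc
Rps27rt: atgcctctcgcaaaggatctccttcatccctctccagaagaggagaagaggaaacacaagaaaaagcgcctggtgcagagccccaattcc
Rps27l: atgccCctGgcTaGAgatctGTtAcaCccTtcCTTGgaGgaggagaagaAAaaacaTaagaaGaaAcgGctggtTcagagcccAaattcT

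Rps27rt had depth-normalised counts of 297 to 473 in HEM libraries at 13 months, with all 8 above the 245, 249, 223 and 184 of the WT libraries. No other of the 85 members showed such a separation in the higher direction, where 2.69% of all genes did. The ratio of the means was 1.73 and the log2 change 0.78 ± 0.18 (SE; limma adjusted p = 0.0097), and without the 3 libraries set apart it was 0.79 (limma adjusted p = 0.0179). Once a trend with gene length and GC was taken off, the log2 change was 0.52 with a limma adjusted p of 0.0707. Since no coding base separates it from Rps27, whose counts were far larger, its value is uncertain. Reads can only be split by the non-coding ends, and how multiply placed reads were counted is not given in the sources used here. Rps27 itself was at 18941 to 30190 in HEM libraries, against 21407, 26847, 21260 and 21457 in WT libraries (0.09 ± 0.14, SE; limma adjusted p = 0.778).

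Rps27l, a p53-induced relative of Rps27 whose sequence is distinct, was at 2711 to 3857 in HEM libraries at 13 months, with a median of 3401. The WT libraries had 3663, 5251, 4761 and 3879. The ranges overlapped, with 2 of the 4 WT libraries well above all HEM ones. The ratio of the means was 0.758 and the log2 change -0.40 ± 0.11 (SE; limma adjusted p = 0.0263). It was lost when WT replicate 7 or WT replicate 8 was left out (log2 changes -0.30 and -0.35, limma adjusted p of 0.135 and 0.0983) and without the 3 libraries that stood apart on principal components (-0.33, limma adjusted p = 0.0813). With the 2 groups fitted alone the limma adjusted p was 0.0614.

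The next members by p at 13 months did not pass. Rpl41, the smallest ribosomal protein, was at 34786 to 49665 in HEM libraries, against 41928, 65000, 51496 and 60221 in WT libraries (log2 change -0.39 ± 0.13, SE; limma adjusted p = 0.0565). Rpl41 passed without WT replicate 6 or HEM replicate 13 at 13 months or HEM replicate 3 at 3 months (0.0165, 0.0407 and 0.0406). Rpl7l1, a relative of Rpl7 linked to large-subunit assembly, had -0.20 ± 0.08 (SE; limma adjusted p = 0.0848) and Rpl36al, the chromosome 12 copy of X-linked Rpl36a, -0.26 ± 0.10 (SE; limma adjusted p = 0.100). Of the remaining pairs of a core gene and its copy, Rpl3 and Rpl3l had log2 changes of -0.20 and -0.03. Rpl22 and Rpl22l1 had -0.16 and -0.12, and Rpl39 and Rpl39l had 0.07 and -0.04. Rps19 and Rps19bp1, which binds Rps19 and is not a copy of it, had -0.05 and -0.12. The next higher by p were Rpl24 (0.59 ± 0.25, SE; limma adjusted p = 0.136), which passed without WT replicate 6 (0.0329), and Rps24 and Rps27 with 0.10 and 0.09. In the P stalk Rplp0, Rplp1 and Rplp2 had 0.08, -0.13 and -0.03, and Rpsa, a small-subunit protein also known as the laminin receptor, had -0.04.

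Markers of other cells differed strongly between these groups. All 10 neutrophil markers rose in 13-month HEM mice, 2 of 7 erythroid markers rose, all 6 choroid plexus markers fell, and 0 of 10 microglia markers were called. Of 6 astrocyte markers 1 fell, Aldh1l1, a call lost without any of 9 libraries (limma adjusted p up to 0.123). Among all genes 4.87% were called higher and 7.3% lower. The mean log2 level of the neutrophil list ran from 11.64 to 15.12 in HEM libraries, against 10.38 to 12.14 in WT libraries. The choroid plexus list ran from 14.51 to 15.59 in HEM libraries, against 15.71 to 16.24 in WT libraries, without overlap. With the neutrophil and erythroid level as a covariate, 0 genes were called in all, and Rps27rt and Rps27l had log2 changes of 0.66 and -0.48 with limma adjusted p of 0.516 and 0.459. The part of these cells in the 2 calls was not tested further.

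At 3 months 0 genes were called by the limma fit (0.0%), with 924 (3.85%) at an unadjusted p under 0.05; edgeR on the recovered reads called 0 and DESeq2 called 6 (0.0251%), with 0 ribosomal protein genes in either. The median log2 change of the 85 was 0.12 in HEM mice, against 0.01 for all genes, and 71 of the 85 were above 0, where 51.5% of all genes were. This median was 0.046 without HEM replicate 3, 0.065 without WT replicate 5, 0.073 without HEM replicate 4 and 0.24 without HEM replicate 7. All 7 neuron markers were above 0, with a median of 1.10, and so were all 5 endothelial ones, with 0.20. The 10 neutrophil and 7 erythroid markers were all below 0, with medians of -0.65 and -0.38. None of these markers was called, and their part in the shift was not tested. Only Rps27rt was higher at an unadjusted p under 0.05, where 1.84% of all genes were. It had 240, 249, 307 and 189 in HEM libraries, against 138, 219 and 152 in WT libraries (0.54 ± 0.23, SE; limma adjusted p = 1.0). Rpl6 followed with 36124, 37771, 37796 and 28935 in HEM libraries, against 29476, 31859 and 28373 in WT libraries (0.23 ± 0.11, SE; limma adjusted p = 1.0), and HEM replicate 7 lay inside the WT range. Rps6 and Rps12 had 0.21 and 0.26. The lower ones with the smallest p were Rpl13a, Rpl39l, Rps18 and Rpl3l, with -0.10, -0.28, -0.20 and -0.38.

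The 2 genotype effects were then subtracted, 13 months minus 3 months. The median over the 85 genes was -0.21, against 0.00 for all genes, with 9 of the 85 above 0, where 50.4% of all genes were. This median was -0.33 without HEM replicate 7 at 3 months and -0.14 without WT replicate 7 at 13 months. All 10 neutrophil and 7 erythroid markers were above 0 here, with medians of 2.91 and 1.42. The 6 choroid plexus and 7 neuron markers were all below 0, with medians of -1.19 and -0.97. None of these markers was called, and their part in the shift was not tested. None of the 85 was called by limma (0 genes in all or 0.0%, 3551 or 14.8% at an unadjusted p under 0.05), and 6 were lower at an unadjusted p under 0.05 where 8.04% of all genes were. Rpl6 had the smallest p (-0.46 ± 0.15, SE; limma adjusted p = 0.146), followed by Rpl7a, Rpl18 and Rpl10 with -0.32, -0.37 and -0.35. edgeR called 0 genes; DESeq2 called 938 genes (5.37%), with Rpl6 as the only member (log2 value -0.47, DESeq2 adjusted p = 0.0358). Of 10 listed genes that are among those mutated in Diamond-Blackfan anaemia, an inherited failure of red cell production, 0 were called here. All 10 were below 0, as were 76 of the 85 ribosomal protein genes. Between the genotypes 1 of these 10 was above 0 at 13 months and all 10 at 3 months, where 53.8% and 51.5% of all genes were. With age 7 were above 0 in HEM mice and all 10 in WT mice, where 49.4% and 48.8% of all genes were.

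Other genes of ribosome production and translation were listed for comparison. At 13 months 3 of 31 initiation factor genes fell in HEM mice, led by Eif3i and Eif3m, subunits of the scaffold factor eIF3, with log2 changes of -0.35 ± 0.09 and -0.26 ± 0.07 (SE; limma adjusted p = 0.0126 and 0.0191); 0 rose, and the list's median was -0.09. Of 10 elongation and release factor genes 1 fell, Eef1a1, the factor that delivers aminoacyl-tRNA (-0.38 ± 0.10, SE; limma adjusted p = 0.0193). Of 32 genes of rRNA synthesis and ribosome assembly 4 fell and 2 rose, led by Bysl, a small-subunit assembly factor (-0.51 ± 0.11, SE; limma adjusted p = 0.0044), and Riok1, a kinase of late small-subunit maturation (0.40 ± 0.09, SE; limma adjusted p = 0.0073). Of 16 mTOR and TOP mRNA regulators 2 rose and 1 fell, led by Rheb, the activator of mTORC1, which fell (-0.36 ± 0.08, SE; limma adjusted p = 0.0058), and Myc, which rose (1.001 ± 0.28, SE; limma adjusted p = 0.0266). These shares stand beside 12.2% called among all genes. Without WT replicate 7 or 9 the calls of Eif3i, Eif3m and Eef1a1 were lost (limma adjusted p of 0.0604 to 0.0978), that of Eif3m also without WT replicate 8 (0.0678), and that of Myc without WT replicate 6 or 9 (0.0843 and 0.0881). With age in HEM mice 1 initiation factor rose, Eif3a (0.28 ± 0.07, SE; limma adjusted p = 0.0454, lost without any of 14 libraries), and 0 genes of the other production lists were called; in WT mice 0 genes of these lists were called.

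A few members varied within groups far more than the rest. Rpl29, a large-subunit protein whose within-group SD of 1.29 on the log2 scale was the highest of the 85, was at 17986, 1141, 8817, 1783, 9124, 17536, 15771 and 17389 in HEM replicates 1, 3, 4, 7, 8, 11, 12 and 13 at 13 months. In WT libraries of that age it was at 19180, 1677, 9641 and 11488. At 3 months it was at 10962, 12786, 12047 and 15920 in HEM libraries and at 15436, 9327 and 8789 in WT libraries. In 3 libraries of the older mice, of both genotypes, Rpl29 was at 1783 or less, and no library lay between 1783 and 8789.

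Rplp0, the P stalk anchor and a common reference gene, was at 22348 and 21985 in HEM replicates 7 and 12 at 13 months and at 18262 in HEM replicate 7 at 3 months, and at 35517 to 77661 in the other 16 libraries. Rpl21, a large-subunit protein, was at 16630 and 15348 in HEM replicates 8 and 12 and at 14809 in WT replicate 6 at 13 months, and at 20023 to 38524 in the others. At 13 months HEM replicate 7 was among the low libraries of both Rpl29 and Rplp0, and HEM replicates 8 and 12 among those of both Rpl21 and Rps18-ps3. None of Rpl29, Rplp0 and Rpl21 was called in any of the 5 comparisons, and their SEs (0.71, 0.34 and 0.25 on the log2 scale for HEM against WT at 13 months) were large beside the 0.09 of Rps6.

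**Figure D5:**
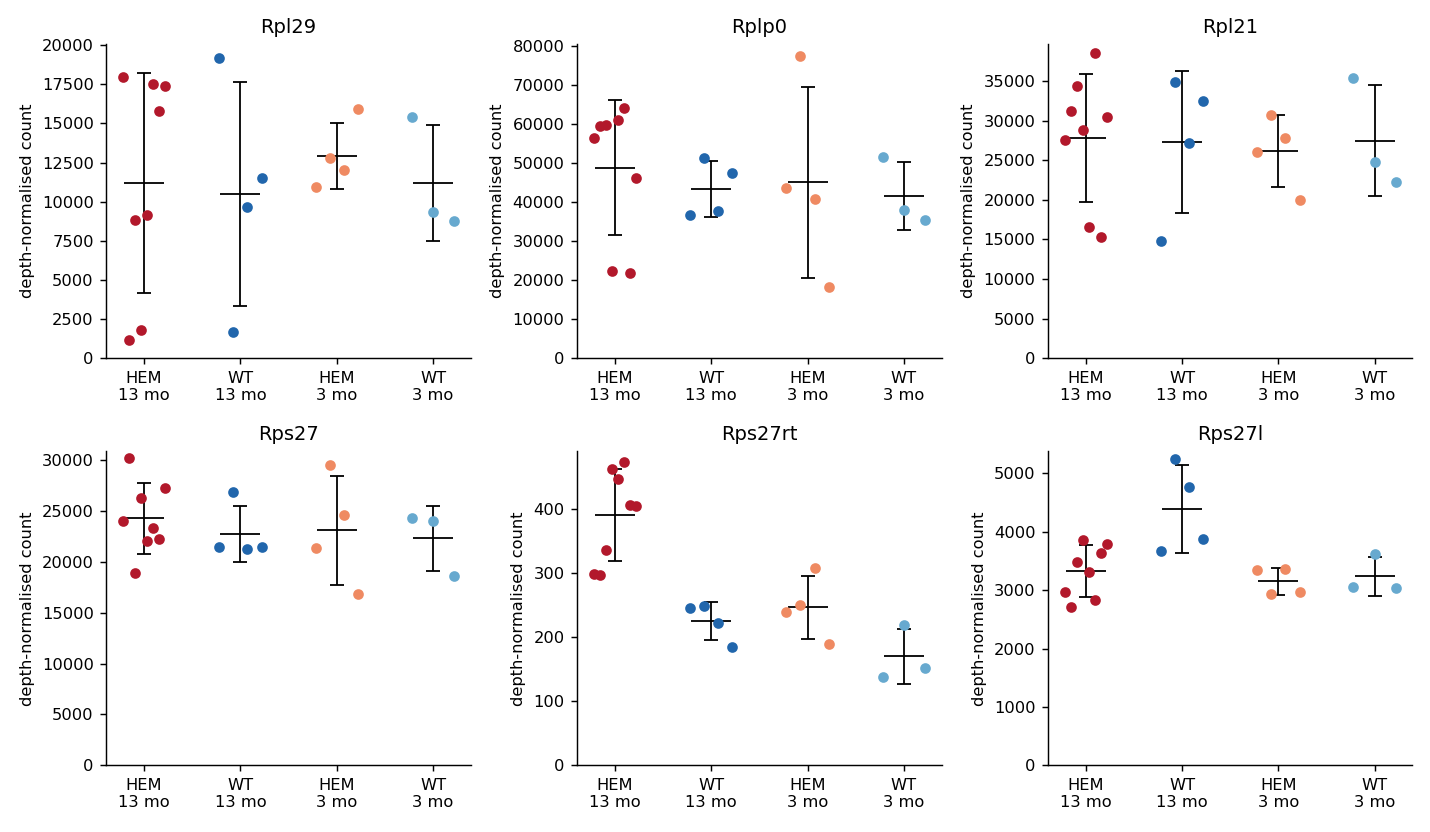
Depth-normalised counts of 6 genes in each of the 19 libraries, with the mean and SD of each group. Rpl29, Rplp0 and Rpl21 show libraries set apart within groups, for example 1141, 1783 and 1677 for Rpl29, while Rps27rt is above all 4 WT libraries in all 8 HEM libraries at 13 months and Rps27l is highest in 2 WT libraries of that age.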

How the data were processed

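The authors deposited 1 table of depth-normalised counts per sample and 1 for the series. Per the submitters' processing notes the tools were Trimmomatic, HISAT2, featureCounts and DESeq2 with mm10; versions, annotation and the treatment of multiply placed reads are not given in the sources used here. The deposited values (a signal: gene counts divided by 1 size factor per library) were checked on the files: whole reads came back for 100% of values at a tolerance of 0.01. Because they are not raw counts, limma 3.58.1 (R 4.3.3; trend, robust) was fitted to log2(value + 1) for genes with a value of 10 or more in at least 3 libraries, with 4 groups and no covariate; adjusted p under 0.05 was called. The fit was tested on simulated data. Alternatives included edgeR 4.0.16 and DESeq2 1.42.0 on the recovered reads. The replicates are separate mice. The members, the lists and the naming rule were chosen with earlier results of these data known. Genes named are Rps18, Rps6, the P stalk, Rpsa, copies with their core genes, and Rps19 with Rps19bp1. Also named are the 4 members with the smallest p per direction and comparison, and the 3 highest and 3 lowest per kb. Called neighbours of Rps18 and the 2 leading called genes of each list are named too. Rpl29, Rplp0, Rpl21, Rpl23a, Rpl35, B3galt4, Wdr46 and Rps28 were also described after their values were seen. Counting error is small for the abundant genes at 63.3 to 124.5 M reads. It is larger at low counts, as for Rpl39l and the libraries lowest in Rps18-ps3. Replicate numbers were not used as pairs in the main fit.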

Additional observations from a re-analysis of the deposited data

Results flagged for a closer look

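Among 120 groups of 4 to 8 libraries checked, 3 had a library far from the others by Dixon's test; chance alone flags about 1 in 20 groups. Rpl7, a core large-subunit protein, was at 31908 in HEM replicate 7 at 3 months, with the other 3 libraries at 38195 to 39359; this library was the lowest of its group for 78 of the 85 genes. Rps27 was at 26847 in WT replicate 7 at 13 months, with the others at 21260 to 21457; this library was the highest of its group for 76 of the 85. Rpl24 was at 94.5 in WT replicate 6 at 13 months, with the others at 42.9 to 50.4.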

How the results depend on the processing

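The rise of Rps18 with age in HEM mice (log2 change 1.54) kept its direction in every alternative run and was past the threshold in all but 2 of them; without 1 library at a time it was 1.37 to 1.69. The covariate, the mean level of neutrophil and erythroid markers, gave 1.53 in HEM mice and 1.31 in WT mice, neither past the threshold. In WT mice the 2 groups fitted alone gave 1.30 with limma adjusted p = 0.0514, and single libraries left out gave 1.10 to 1.46. Replicate numbers were not treated as pairs in the main fit. Deviations from the group means in same-numbered HEM and WT libraries correlated at 0.107 and 0.126 at 13 months. At 3 months they correlated at 0.021 and -0.038. Without the correlations of differently numbered libraries beside them, these values cannot decide whether the numbers pair the mice. With the replicate number as a block, Rps18 had 1.44 in HEM mice and 1.13 in WT mice, its distance from the others with age in WT mice was 0.63, that between the genotype effects 0.74, and the medians of the 85 genes were -0.27 for HEM against WT at 13 months, 0.50 with age in WT mice and -0.43 for the genotype effects.

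At 13 months, HEM against WT, 2918 genes and 2 ribosomal protein genes were called. The block and the covariate called 0 genes and 0 members, DESeq2 4 members and 4032 genes, the 2 groups alone 1 and the fit without the 3 libraries set apart 1; without single libraries 1707 to 3287 genes and 1 to 4 members were called. Rps18 turned to -0.026 with the length and GC trend removed and ran from -0.072 to 0.24 without single libraries. At 3 months DESeq2 called 6 genes. With age in HEM mice, 388 genes became 231 with the 2 groups alone, 1308 with DESeq2, 0 with the covariate, 1 with the block, 203 without the 3 libraries and 62 to 648 without single ones; members became 2 with DESeq2, 0 with the covariate, 0 with the block and 1 to 2 without single libraries. With age in WT mice, 170 genes became 77 with the 2 groups alone, 1217 with DESeq2, 103 with edgeR, 292 with a filter at 50, 79 with no filter, 4 with the covariate, 0 with the block, 256 without the 3 libraries and 0 to 523 without single ones; members became 0 with the 2 groups alone, 9 with DESeq2, 3 with length and GC, 0 with the covariate, 0 with the block and 0 to 1 without single libraries. For the genotype effects, 0 genes became 938 with DESeq2, 1 without the 3 libraries and 0 to 313 without single ones, and members 1 with DESeq2. The causes were not tested.

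Values near 0 changed sign. The median of the 85 genes with age in HEM mice was -0.069 without HEM replicate 7 at 3 months. For HEM against WT at 13 months, Rps24 was -0.0078 and Rps27 -0.0045 with length and GC, and -0.090 and -0.14 with the block. With age in WT mice, Rpl29 was 0.72 with the covariate and -0.92 to 0.25 without single libraries, and Rpl34 was 0.010 with length and GC, 0.022 with the covariate and -0.18 to 0.081 without single libraries. For the genotype effects, Rpl39l was -0.20 with the covariate and Rps27rt -0.058 with length and GC.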
